A study of Mus musculus with 18 samples.

Results

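Skeletal muscle of wild-type mice kept on a high-fat diet (HFD) was compared with that of wild-type mice kept on normal chow, where the mice of both diets were given AQ in their drinking water. The 6 libraries were chosen by their labels alone, 3 of HFD with AQ (WT-HFD-AQ) and 3 of chow with AQ (WT-NC-AQ), out of 18 in the series, and all 12524 genes that passed a filter on low values were tested. The label AQ is not spelled out and is kept as written, and no dose is given for it in the labels. Each diet lasted 10 weeks and AQ was drunk freely. The other 12 libraries are untreated wild type on HFD (WT-HFD) and on chow (WT-NC), HFD-fed wild-type controls of a transgenic line (HFD-WT) and HFD-fed Nurr1 transgenic mice (HFD-Nurr1-mTg), with 3 libraries each. The untreated pair, WT-HFD against WT-NC, answers the same diet question without AQ and shares no library with the pair described here. The labels name neither the muscle taken nor the hour of sampling, the sex or the age of the mice. The labels number the samples as biological replicates without naming the animals, so p-values measure the spread between these samples.

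Muscle on a fat-rich diet is known to burn more fatty acid. Fatty acids enter the fibre through CD36 and the FATP transporters, are bound by the carrier FABP3, activated to acyl-CoA and carried into mitochondria by the carnitine shuttle, where beta-oxidation shortens them step by step into acetyl-CoA for the citrate cycle. Many of these genes are read by the nuclear receptors of the PPAR family, which sense fatty acids. Muscle also runs a circadian clock: BMAL1 (gene Arntl) with CLOCK or NPAS2 drives Per, Cry and Nr1d genes, whose products then repress the drivers, so that levels of these genes swing with the hour and with feeding.

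Values are CPM as deposited, read counts scaled to library size, from 10404895 to 14815234 reads a library in these 6. Differences are HFD minus chow on the log2(CPM + 1) scale from 1 limma fit of all 18 libraries, given with their standard error (SE). A gene is called where the Benjamini-Hochberg adjusted p is below 0.05, and this scale understates the change of genes at low CPM. All 12 skeletal muscle fibre markers were measured, and 3 of them were called: Mb, which stores oxygen, was higher, while Des, an intermediate filament, and Pygm, the glycogen phosphorylase of muscle, were lower, and each of them lost its call in 4 or 5 of the 6 fits with 1 library left out. Some measures of the libraries moved with diet among the AQ libraries. A clock score (the log2 level of Arntl less that of Dbp) ran from -4.65 to -3.95 on HFD and from -1.62 to -0.24 on chow. The slope of expression with GC content ran from -0.153 to -0.0092 log2 units per 10 points of GC on HFD and from 0.02 to 0.093 on chow. The 10 most abundant genes took 19.8% to 20.4% of reads on HFD and 22.4% to 24.8% on chow. Their part in the results was not tested beyond the fits named below.

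With AQ, 1324 genes differed between HFD and chow, 10.6% of those tested. Of these, 613 (4.89% of genes tested) were higher and 711 (5.68%) were lower on HFD. The counts of called list members below are to be read against these shares. Most changes were small: 45 genes rose and 37 fell by more than 1 log2 unit, and the median change was 0.46 among the called genes that rose and -0.47 among those that fell. The unadjusted p was below 0.05 for 3177 genes. The 3 HFD and the 3 chow libraries did not overlap for 4160 genes, 33.2% of those tested, and for 1315 of the 1324 called. edgeR on the recovered reads called 1282 and DESeq2 1423. With plain CPM in place of the deposited scaling, which matches TMM (a trimmed mean), the median of all genes rose from -0.002 to 0.06 and the calls became 833 higher and 375 lower, 69.0% higher against 46.3%. Without HFD replicate 1 or 3 the count of calls was 833 or 602, and without chow replicate 1 or 3 it was 645 or 573. Called genes that rose had a median GC content of 46.9% and those that fell of 55.1%, against 49.8% over all genes. Once the GC trend of each library was taken out, 1022 genes were called, 861 of them among the 1324. With the clock score as a covariate, an alternative chosen after seeing the data, 531 were called, 367 of them among the 1324.

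**Figure D1:**
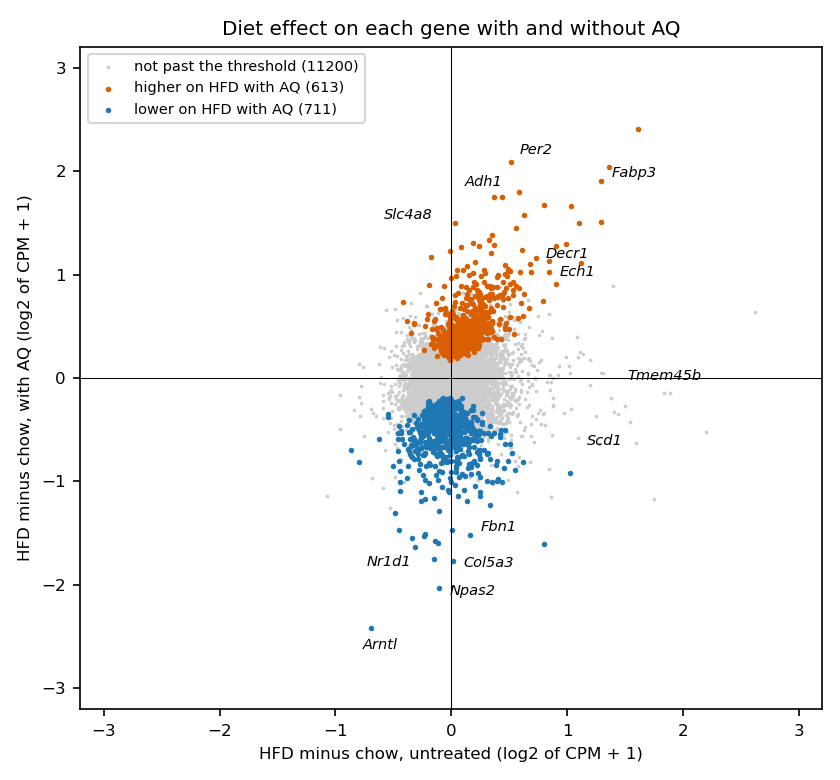
Each point is 1 of 12524 genes, with its HFD minus chow difference in untreated mice on the x axis and in mice given AQ on the y axis (log2 of CPM + 1). Orange and blue points are the 613 genes called higher and the 711 called lower with AQ, and most of them lie closer to 0 on the x axis than on the y axis. They were selected by the y axis, so their positions do not compare the size of the diet effects.

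Genes of fatty acid use rose together on HFD with AQ. Of 24 tested genes of the carnitine shuttle and beta-oxidation, 20 rose and 0 fell, with a median difference of 0.74 against -0.002 over all genes. Among 11 genes of fatty acid uptake and activation, 6 rose and 0 fell, with a median of 0.60. The beta-oxidation count was also 20 under plain CPM, with the GC trend removed and with the clock score as a covariate, and it was 18 to 20 with any 1 library left out. The uptake count was 6 under plain CPM and with the GC trend removed, 7 with the clock score and 4 to 6 with any 1 library left out.

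At the cell surface, Cd36, the main fatty acid translocase of muscle, was measured at 685, 626 and 699.7 CPM in the 3 HFD libraries and at 335, 356 and 299 CPM in the 3 chow libraries. Every HFD library lay well above every chow library, a difference of 1.02 ± 0.19 (SE; adjusted p = 0.00246). The fatty acid transporter gene Slc27a1 rose by 0.74, Gpihbp1, which anchors lipoprotein lipase to capillaries, by 0.62, and Acsl1, which makes acyl-CoA, by 0.68. Lipoprotein lipase itself (Lpl), at 0.45, was not called (adjusted p = 0.0897). Inside the fibre, the carrier gene Fabp3 stood at 403, 349 and 304 CPM on HFD and at 87.5, 129 and 69.9 CPM on chow. Chow replicate 2 was the highest of its group and still lay below every HFD library, and the difference of 1.91 ± 0.29 (adjusted p = 0.000609) is among the largest measured. Dbi, the acyl-CoA binding protein, rose by 0.60 ± 0.10 (adjusted p = 0.00165). Gpihbp1 was not called without HFD replicate 1 or 2 or chow replicate 1 or 3 and Acsl1 without HFD replicate 1, 2 or 3 or chow replicate 1 or 3.

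In the carnitine shuttle, the carrier gene Slc25a20 rose by 0.77 and Cpt2, on the inner membrane, by 0.58. The entry enzymes of the shuttle were not called: Cpt1b, the muscle form, was at a mean of 11.5 CPM on HFD against 9.75 CPM on chow, and Cpt1a at 16.8 and 15.7 CPM. All 4 acyl-CoA dehydrogenases of the list, which take the first step of each turn, were higher, by 1.11 for Acadl, 0.91 for Acadvl, 0.79 for Acadm and 0.59 for Acads. Electrons from that step leave through the flavoproteins Etfa (0.62), Etfb (0.61) and Etfdh (0.998), all called. The thiolase Acaa2 rose by 1.03. The peroxisomal genes were less uniform: Hsd17b4 rose by 0.56, whereas Ehhadh (-0.073) was not called. Slc25a20 was not called without chow replicate 3 and Hsd17b4 without HFD replicate 1 or chow replicate 1 or 3.

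Decr1 and Ech1, which rearrange the double bonds of unsaturated fatty acids so that they can be oxidised, were the largest rises of the list. Decr1 was at 311, 303 and 305 CPM on HFD and at 127, 149.8 and 135 CPM on chow. The HFD libraries were tightly grouped and every chow library lay far below them, a difference of 1.16 ± 0.12 (adjusted p = 5.18e-05). Ech1 was at 500.3, 495 and 414 CPM on HFD against 202, 245 and 196 CPM on chow, again with no overlap, and rose by 1.13 ± 0.13 (adjusted p = 0.000138).

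Hadha and Hadhb encode the alpha and beta subunits of the mitochondrial trifunctional protein, which carries out the last steps of the cycle for long chains. Their levels rose side by side, Hadha by 0.78 ± 0.14 and Hadhb by 0.87 ± 0.12. Hadhb stood at 89.6, 81.7 and 71.1 CPM on HFD and at 42.4, 46 and 42.6 CPM on chow. The genes lie head to head on chromosome 5 (GRCm38), with GENCODE M21 placing Hadha from 30118304 to 30155162 on the minus strand and Hadhb from 30155248 to 30184593 on the plus strand, and only 85 bases separate their annotated starts. That stretch, chr5:30155163-30155247 on the plus strand, is printed from RefSeq (GRCm38.p6) because it is the shared upstream sequence of the pair, with GC boxes (GGGCGG, searched on both strands) in capitals, beginning 90 and 25 bases before the RefSeq start of Hadhb.
Hadha and Hadhb: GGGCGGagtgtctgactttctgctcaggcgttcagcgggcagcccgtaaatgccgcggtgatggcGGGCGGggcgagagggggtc
GC boxes are common: 32.7% of 32851 promoter windows of 250 bases hold one, as do 53.7% of windows of genes that rose, 56.0% of those that fell and 57.1% over genes tested. A direct repeat read by PPAR with RXR (AGGTCA, any base, AGGTCA, both strands) stands in 11 of the 32851 windows and in 0 of the 605 windows of genes that rose.

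**Figure D2:**
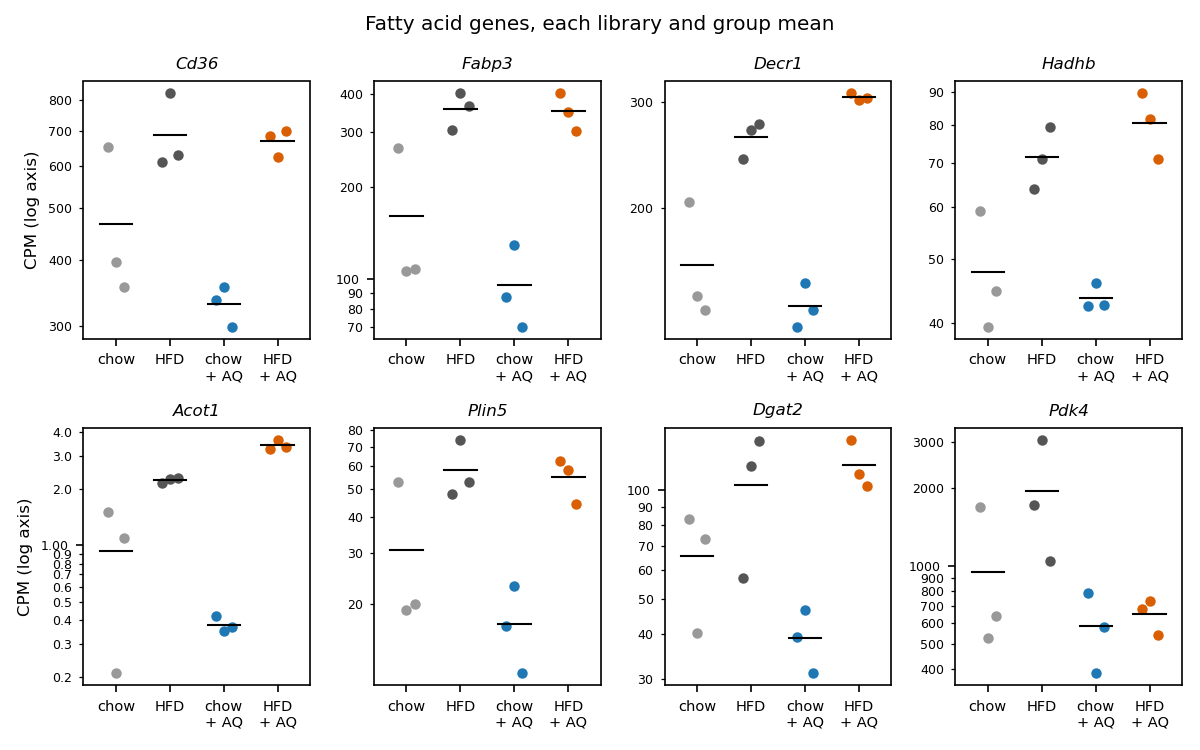
Level of 8 genes of fatty acid use in each of 12 libraries (CPM, log axis), in untreated chow and HFD and in chow and HFD with AQ. Points are libraries and bars are group means. For 7 genes, all but Pdk4, the 3 HFD libraries with AQ lie above the 3 chow libraries with AQ, while untreated chow replicate 1 lies near or among the HFD libraries for Cd36, Fabp3, Plin5 and Pdk4.

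Of 16 tested genes in the list of lipid overload genes and PPAR targets, 7 rose and 0 fell, with a median of 0.38; in untreated mice the median of the list was 0.66. The count was 3 without chow replicate 3 and 5 to 7 without any other of the 6 libraries. Acot1, a cytosolic acyl-CoA thioesterase, stood at 3.25, 3.64 and 3.33 CPM on HFD and at 0.423, 0.349 and 0.366 CPM on chow. It was low everywhere, yet the HFD libraries were tightly grouped far above the chow libraries (1.68 ± 0.24, adjusted p = 0.000505). Acot2, its mitochondrial neighbour on chromosome 12, rose by 1.49 ± 0.36 (adjusted p = 0.0142). Acot2 was not called without HFD replicate 1 or chow replicate 3 (differences of 1.35 to 1.44). Acot1 and Acot2 are near-identical copies, so reads may have been split between them in the authors' counting. Slc25a34, a mitochondrial carrier, rose by 1.45. Slc25a34 was not called without chow replicate 3.

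Some genes known to answer fatty acids strongly did not pass the test with AQ. Pdk4, which shuts pyruvate out of the citrate cycle, was at 679, 733 and 539 CPM on HFD against 786, 385 and 582 CPM on chow. The groups overlapped, with a difference of 0.20 ± 0.42 (adjusted p = 0.815). Angptl4, a secreted lipase inhibitor, was at a mean of 3.67 CPM on HFD against 4.91 CPM on chow, and Ucp3, an uncoupling protein of muscle mitochondria, at 146 and 113 CPM, both with overlapping groups. In untreated mice Angptl4 was at 16.5, 16.8 and 12 CPM on HFD and at 5.47, 2.02 and 3.08 CPM on chow, higher in every HFD library, though not called there (adjusted p = 0.218), and the difference between the diet effects with and without AQ, -2.04, was not called either (adjusted p = 0.182).

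On lipid droplets, 6 of 14 tested coat and lipase genes rose and 0 fell, and 4 or 5 rose with 1 library left out. Plin5, the perilipin that ties droplets to mitochondria, stood at 62.3, 58.3 and 44.6 CPM on HFD and at 16.8, 23.1 and 11.6 CPM on chow, with no overlap (1.66 ± 0.31, adjusted p = 0.00258). Dgat2, which makes triglyceride, was at 138, 111 and 103 CPM on HFD and at 39.2, 46.5 and 31 CPM on chow. The lowest HFD library was above the highest chow library by a wide margin (1.57 ± 0.28, adjusted p = 0.00216). G0s2, an inhibitor of the lipase ATGL, rose by 1.27, and Abhd5, the co-activator of the same lipase, by 0.32. Plin4 rose by 0.38 ± 0.11 (adjusted p = 0.0433) and was not called without HFD replicate 1 or 2 or chow replicate 1, 2 or 3 (differences of 0.27 to 0.43). Plin2 (0.10), Plin3 (0.18) and the lipase ATGL itself, gene Pnpla2 (0.27), were not called. Mid1ip1, which binds acetyl-CoA carboxylase, was among the largest rises, at 124, 99.3 and 87.7 CPM on HFD against 25, 40.3 and 26.4 CPM on chow (1.75 ± 0.26, adjusted p = 0.000609). Abhd5 was not called without HFD replicate 2 or 3 or chow replicate 1 or 3.

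Downstream of acetyl-CoA, genes of the mitochondrial core rose by smaller amounts. Of 17 citrate cycle genes, 10 rose and 0 fell, with a median of 0.33, and all 17 had a difference above 0. Sdhb, an iron-sulfur subunit of succinate dehydrogenase, was at 577, 637 and 546 CPM on HFD and at 378, 476 and 354 CPM on chow. Chow replicate 2 came nearest to the HFD group without reaching it, and the difference was 0.55 ± 0.11 (adjusted p = 0.00479). Fh1, which hydrates fumarate, rose by 0.45 and Sucla2, a subunit of succinyl-CoA synthetase, by 0.45. Citrate synthase (Cs), at 0.26, was not called.

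Of 24 nuclear genes of the respiratory chain and ATP synthase, 14 rose and 0 fell, with a median of 0.35. Ndufs1 of complex I rose by 0.56, Uqcrc2 of complex III by 0.57, Cycs, cytochrome c, by 0.62, and Atp5c1 of ATP synthase by 0.46. This count rests more on single libraries than that of beta-oxidation: it was 5 without chow replicate 1 and 5 without chow replicate 3, 9 without HFD replicate 1 or 2, and 19 without chow replicate 2, and with the clock score as a covariate it was 4, with 0 lower in each. The citrate cycle count fell to 6 without HFD replicate 3 or chow replicate 1 or 3, and to 5 with the clock score. With the clock score the median was 0.49 for the respiratory chain and 0.49 for the citrate cycle, against 0.35 and 0.33 in the main fit. The fewer calls in that fit thus did not come with smaller median differences. Cycs was not called without HFD replicate 3 or chow replicate 1 or 3. Of 18 mitochondrial ribosomal protein genes, 3 rose and 0 fell, and 1 to 3 rose with 1 library left out. None of 20 cytosolic ribosomal and none of 18 proteasome genes was called, with medians of 0.023 and 0.0022.

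Of 13 genes of pyruvate dehydrogenase and its regulators, 8 rose and 1 fell. The count that rose was 3 without chow replicate 1 or 3, 4 without HFD replicate 2 or 3, 5 without HFD replicate 1 and 8 without chow replicate 2, and it was 5 with the clock score as a covariate. With the clock score the median of the list was 0.58, against 0.38 in the main fit. The subunits of the complex, Pdha1, Pdhb, Dlat, Dld and Pdhx, rose by 0.46, 0.47, 0.54, 0.57 and 0.504. Its activating phosphatase Pdp1 was at 195, 190.3 and 220.5 CPM on HFD and at 124, 119 and 111 CPM on chow, with no overlap (0.77 ± 0.14, adjusted p = 0.00237). Of its inhibiting kinases, Pdk2 fell by 0.39 and Pdk1 rose by 0.30. Of 4 genes of ketone body use 2 rose: Slc16a1, a monocarboxylate transporter, by 0.72, and Acat1, the last thiolase of ketone use, by 0.65. Pdha1 was not called without HFD replicate 2 or 3 or chow replicate 1 or 3, Pdhb without HFD replicate 2 or 3 or chow replicate 1 or 3, Dlat without HFD replicate 1, 2 or 3 or chow replicate 1 or 3, and Pdk1 without HFD replicate 1 or 3 or chow replicate 1 or 3. Slc16a1 was not called without chow replicate 1 or 3.

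**Figure D3:**
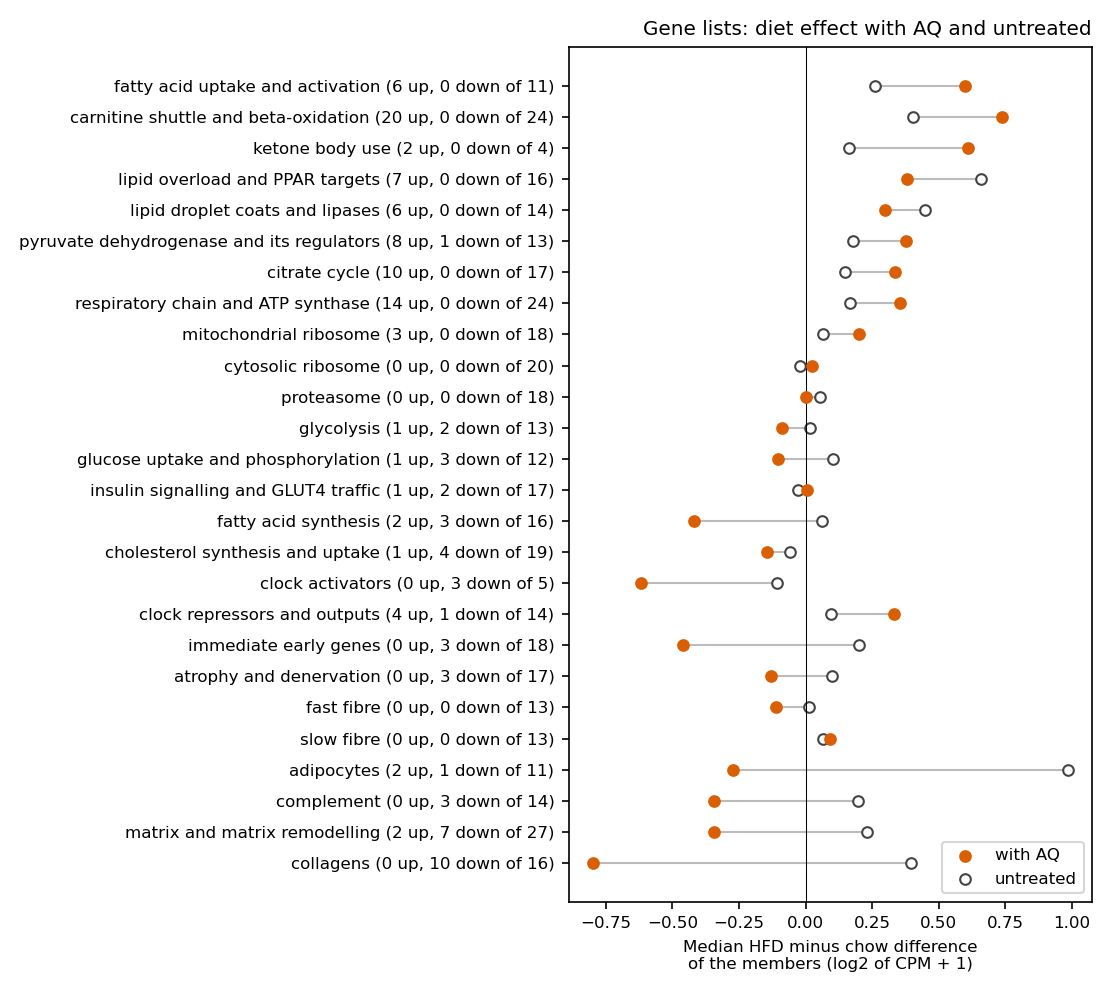
Median HFD minus chow difference of the members of 26 gene lists (log2 of CPM + 1), with AQ (filled) and in untreated mice (open). Beside each name stand the members called higher and lower with AQ, of those tested. The lists of fatty acid use and of mitochondria lie above 0 in both pairs, and collagens lie at -0.80 with AQ and at 0.39 untreated.

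Clock genes moved in opposite directions by role, with exceptions. Of 5 clock activators 3 fell and 0 rose, and of 14 repressors and output genes 4 rose and 1 fell. Arntl, which encodes BMAL1, stood at 5.29, 7.7 and 6.93 CPM on HFD and at 36.1, 36.9 and 45.8 CPM on chow. The highest HFD library lay far below the lowest chow library (-2.41 ± 0.28, adjusted p = 0.000112). Npas2, its alternative partner, was at 0.127, 0.28 and 0.0924 CPM on HFD, a few reads a library, and at 3.17, 3.56 and 4.69 CPM on chow (-2.03 ± 0.26, adjusted p = 0.000215). Clock fell by 0.62 ± 0.13 (adjusted p = 0.00617), while Rora, which activates Arntl, was at 0.15 and was not called.

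Per2, a repressor, moved the other way. It was at 49.8, 52.2 and 49.5 CPM on HFD and at 15, 10.3 and 8.79 CPM on chow, with a rise of 2.09 ± 0.30 (adjusted p = 0.000455). Per3 was at 76.5, 69.3 and 71.5 CPM on HFD and at 33.4, 27.9 and 24 CPM on chow, also without overlap (1.33 ± 0.28, adjusted p = 0.00571). The REV-ERB genes, which repress Arntl, parted: Nr1d1 was lower on HFD, at 103, 92.9 and 83.4 CPM against 328, 307 and 309.96 CPM (-1.75 ± 0.28, adjusted p = 0.000983), and Nr1d2 was higher, at 181, 173 and 190.1 CPM against 136, 116 and 120.1 CPM (0.54 ± 0.11, adjusted p = 0.0058). Of the PAR bZIP outputs, Tef rose by 0.53, and Dbp (0.80) and Hlf (0.70) were not called. Per1, Cry1 and Cry2 were at 0.12, 0.11 and 0.13, and none of them was called. Tef was not called without HFD replicate 1, 2 or 3 or chow replicate 2 or 3.

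The proteins of Dbp, Tef and Hlf bind the D-box. The 250 bases upstream of Per3, chr4:151044666-151044915 on the minus strand of GRCm38.p6 (RefSeq), are printed because they hold a pair of D-boxes (TTATGTAA, or TTACATAA on the other strand), in capitals, which begin 205 and 158 bases before the gene's start.
Per3: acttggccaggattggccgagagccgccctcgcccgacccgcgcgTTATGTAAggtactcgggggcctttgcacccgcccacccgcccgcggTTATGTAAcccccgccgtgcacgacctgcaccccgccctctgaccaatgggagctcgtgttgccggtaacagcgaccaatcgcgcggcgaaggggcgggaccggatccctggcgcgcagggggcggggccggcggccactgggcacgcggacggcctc
A D-box stands in 0.819% of all 32851 windows of this length, in 0.429% of those of the genes tested (52 of 12120), in 6 of 605 (0.992%) of genes that rose and in 5 of 709 (0.705%) of genes that fell. The E-box CACGTG, read by BMAL1 with its partners and the same on both strands, stands in 6.02% of all windows, in 8.30% over genes tested, in 8.76% of windows of genes that rose and in 8.46% of those that fell.

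The untreated libraries show how far these genes vary without AQ. Arntl was at 29.3, 17.5 and 7.83 CPM in untreated chow, a wide spread, and at 11.8, 8.38 and 8.69 CPM in untreated HFD, and Per2 at 14.1, 36.2 and 46.3 CPM in untreated chow. For both genes untreated chow replicate 1 was the nearest of the 3 to the chow libraries with AQ, and replicate 3 the nearest to the HFD libraries with AQ. With 1 library left out, 3 or 4 of the repressors and outputs were called higher, and 3 activators and 1 repressor lower each time. The difference between the diet effects was called for Npas2 (-1.93 ± 0.37, adjusted p = 0.0287) and not for Arntl (-1.72, adjusted p = 0.0522), Nr1d1 (-1.60, adjusted p = 0.0671) or Per2 (1.57, adjusted p = 0.0932). The adjusted p for Npas2 ran from 0.00803 to 0.0825 with any 1 of the 12 libraries left out. Since the labels give no hour of sampling, hour and diet cannot be told apart in these genes. With the clock score as a covariate, which contains Arntl and Dbp themselves, 1 of the 5 activators, Arntl, was called lower, and 0 of the 14 repressors and outputs were higher and 4 lower.

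**Figure D4:**
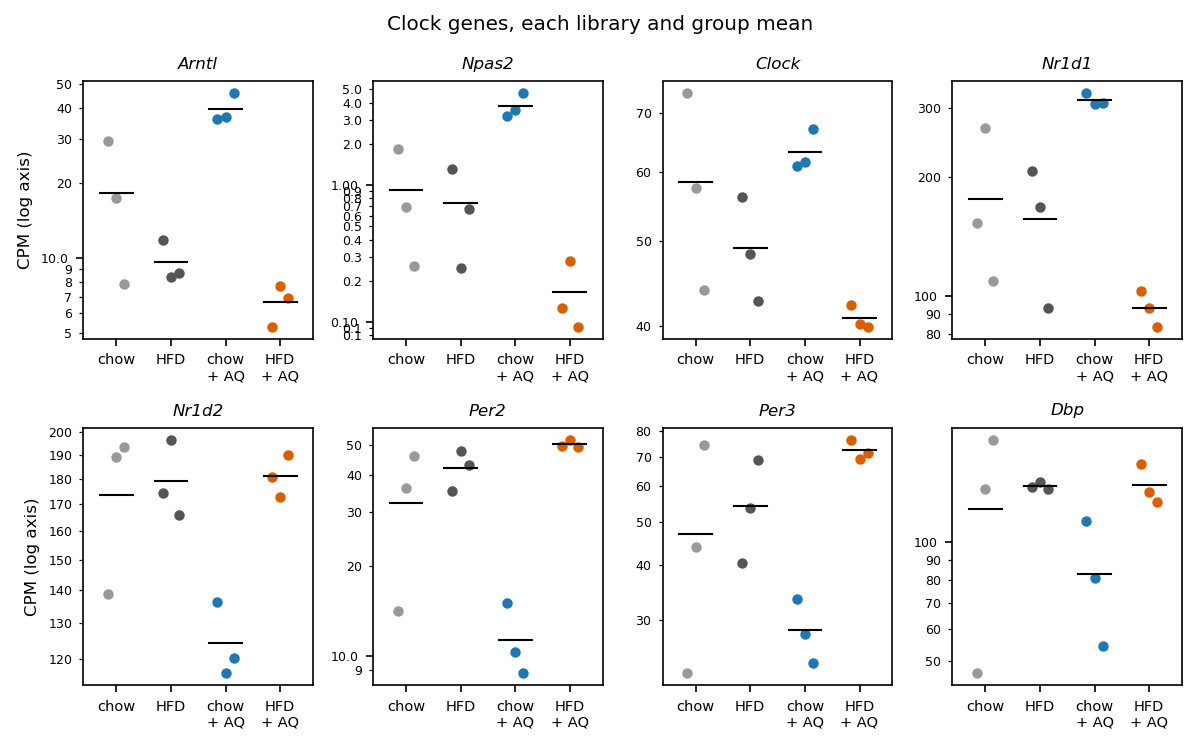
Level of 8 clock genes in each of 12 libraries (CPM, log axis). Points are libraries and bars are group means. With AQ, Arntl, Npas2, Clock and Nr1d1 are lower and Nr1d2, Per2 and Per3 higher in every HFD library than in any chow library, and untreated chow libraries are spread widely.

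Genes of the extracellular matrix were lower on HFD with AQ. Of 16 collagen genes 10 fell and 0 rose, with a median of -0.80, and of 27 other genes of matrix and its remodelling 7 fell and 2 rose, with a median of -0.35. In untreated mice every one of the 16 collagens and 26 of the 27 matrix genes had a difference above 0, with medians of 0.39 and 0.23. These rest in part on untreated HFD replicate 1, where collagens stood at 0.51 above the mean of all 18 libraries, against -0.11 and -0.29 in the other untreated HFD libraries and -0.55 to -0.20 in untreated chow. Without it the medians were 0.12 and 0.071, and 13 of the collagens and 20 of the matrix genes were above 0. In bulk tissue, fewer cells that make matrix and less matrix RNA per cell cannot be told apart.

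Col5a3, a chain of the fibril collagen V, was at 23.1, 24.3 and 20.4 CPM on HFD and at 69.3, 78.1 and 91.8 CPM on chow. All HFD libraries lay far below all chow libraries (-1.77 ± 0.23, adjusted p = 0.000239). Untreated, it was at 72.6, 46.9 and 33 CPM on HFD against 55.6, 54.1 and 36.3 CPM on chow, overlapping groups, and the difference between the diet effects was -1.78 ± 0.33 (adjusted p = 0.0253, and 0.00815 to 0.0825 with 1 library left out). Col5a1 fell by 0.96 and Col3a1 by 0.98. Col1a1, the main fibril collagen, was at 129.9, 170.1 and 228 CPM on HFD and at 211, 355 and 356 CPM on chow. These overlap, and Col1a1 was not called (-0.80 ± 0.37, adjusted p = 0.189), nor was Col1a2 (-0.31). Col3a1 was not called without HFD replicate 1 or chow replicate 2 or 3.

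Collagens of the basement membrane and collagen VI chains were lower as well. Col4a2 was at 127, 135 and 100.3 CPM on HFD and at 210.4, 278 and 237 CPM on chow (-0.999 ± 0.18, adjusted p = 0.00251), and Col4a1 fell by 1.001 ± 0.22 (adjusted p = 0.00778). The starts of this pair overlap head to head on chromosome 8, and the sources used here do not give whether the authors counted by strand. Col15a1 fell by 1.001, Col18a1 by 0.73, and the collagen VI chains Col6a1, Col6a2 and Col6a3 by 0.70, 0.80 and 0.84. Col4a1 was not called without HFD replicate 3.

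Fbn1, the fibrillin of elastic microfibrils, was at 39.8, 47.8 and 44 CPM on HFD and at 113, 142 and 129 CPM on chow. The groups lay far apart (-1.52 ± 0.21, adjusted p = 0.00029). Loxl1, which cross-links elastin, fell by 1.04, the proteoglycan Vcan by 1.08, fibronectin (Fn1) by 0.69, thrombospondin 1 (Thbs1) by 1.14 and the protease Mmp14 by 0.93. Creb3l1, a membrane-bound transcription factor of collagen genes, was at 2.87, 2.94 and 2.96 CPM on HFD and at 8.32, 10.8 and 13.5 CPM on chow (-1.57 ± 0.27, adjusted p = 0.00188). The exceptions rose: Timp3, a protease inhibitor, by 0.57, and the small proteoglycan Lum by 0.47, the latter with overlapping groups. Decorin (Dcn), at 0.13, was not called. Thbs1 was not called without HFD replicate 2 or 3 or chow replicate 1, 2 or 3 and Lum without HFD replicate 1, 2 or 3 or chow replicate 1 or 3.

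The difference between the diet effects with and without AQ was called for 8 of the 16 collagens and 5 of the 27 matrix genes, all with a lower diet effect under AQ. For collagens the count was 0 without HFD replicate 1 or 3 or chow replicate 2 or 3 with AQ, 1 without untreated HFD replicate 1, 2 without untreated chow replicate 3 and 3 without HFD replicate 2 with AQ, and for matrix genes it was 0 to 6 with 1 library left out. Of 18 fibroblast markers, a list that shares most of its members with these, 9 fell and 1 rose (6 to 9 and 0 or 1 with 1 library left out), and the sum of their levels ran from 2221 to 2801 CPM on HFD and from 2720 to 3573 CPM on chow. Of its members outside the collagen and matrix lists, Pcolce fell by 0.56, and Pdgfra (-0.23), Dpt (-0.20) and Cd34 (0.13) were not called. Pcolce was not called without HFD replicate 1 or 3 or chow replicate 2 or 3. None of these markers is at 0. With any 1 library left out, 9 or 10 collagens were called lower, and with the GC trend removed 10. With the clock score as a covariate, 0 collagens were called in either direction and their median was -0.35. In that fit 0 of the 27 matrix genes were called, with a median of -0.31.

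**Figure D5:**
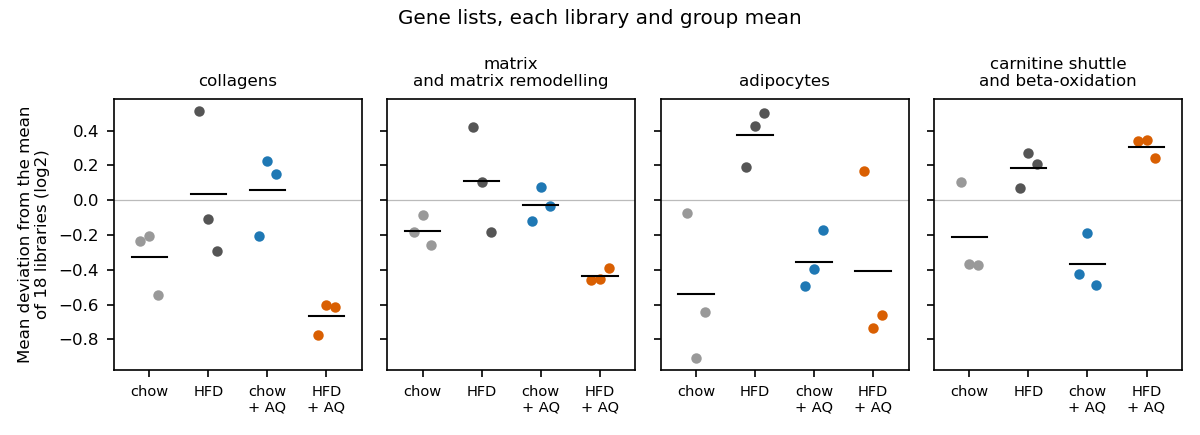
Mean deviation of the members of 4 gene lists from the mean of all 18 libraries (log2 of CPM + 1), in each of 12 libraries. Points are libraries and bars are group means. The 3 HFD libraries with AQ are the lowest of the 12 for collagens, at -0.78 to -0.60, and for matrix genes, at -0.46 to -0.39, and the adipocyte list is spread by HFD replicate 1 with AQ, at 0.17.

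Fat cells, other cells of the tissue and immune genes were looked at through their markers. Of 11 adipocyte markers measured, 2 rose and 1 fell with AQ (1 to 3 and 0 or 1 with 1 library left out), with a median of -0.27; in untreated mice the median was 0.99, with 10 of 11 above 0 and 0 called. Leptin (Lep) was at 18.8, 2.03 and 2.96 CPM on HFD and at 3.66, 3.63 and 1.9 CPM on chow. HFD replicate 1 stood alone above the others, the groups overlapped and Lep was not called (adjusted p = 0.554). Adiponectin (Adipoq) was at 19.1, 6.09 and 9.15 CPM on HFD against 10.6, 12.8 and 17.6 CPM on chow, again overlapping. The markers that rose were Cidea (1.29) and Adig (0.93), and the gluconeogenic gene Pck1 fell by 1.23. Adig was not called without HFD replicate 1 or 2 or chow replicate 1 or 3, and Pck1 without HFD replicate 2 or 3 or chow replicate 1 or 3. The summed level of the list ran from 2124 to 2584 CPM on HFD and from 2628 to 2692 CPM on chow with AQ. Such a sum is weighted to the most abundant members, and Lep and Adipoq are a small part of it. The mean log2 deviation of the members from the mean of all 18 libraries overlapped between the groups. It was 0.17, -0.73 and -0.66 on HFD and -0.49, -0.40 and -0.17 on chow with AQ.

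Of 13 myeloid markers 1 fell, Csf1r, the receptor for a macrophage growth factor, by 0.54, and 0 rose, against 10.6% called over all genes. Csf1r was called in 0 of the 6 fits with 1 library left out, and was not called under plain CPM, with the GC trend removed or with the clock score as a covariate, and 0 myeloid markers were called in those fits. Of 14 complement genes 3 fell and 0 rose (0 to 2 fell with 1 library left out): C3, the central component, at 69.97, 59.9 and 57.2 CPM on HFD against 101, 111 and 117 CPM on chow (-0.81 ± 0.19, adjusted p = 0.0116), C4b by 0.92 and the inhibitor Serping1 by 0.40. C3 was not called without HFD replicate 3 or chow replicate 3 (differences of -0.75 to -0.76). Without the TMM scaling only 1 complement gene was called. Of 8 MHC class II genes H2-DMa fell by 0.75. Of 20 interferon-induced genes Ifit2 rose by 0.45. Of 12 endothelial markers 2 rose, Erg by 0.503 and the VEGF receptor Flt1 by 0.58. C4b was not called without HFD replicate 2 or 3 or chow replicate 1, 2 or 3, Serping1 without HFD replicate 1 or 3 or chow replicate 3, and Ifit2 without HFD replicate 2 or 3 or chow replicate 3. Of 10 markers of smooth muscle and pericytes, Rgs5 rose by 0.65 and Kcnj8 by 0.56, and Acta2 and Des fell by 0.74 and 0.43. With 1 library left out, 1 or 2 of these were called higher and 0 or 1 lower: Acta2 was called in 0 of the 6 fits, Kcnj8 was not called without HFD replicate 1, 2 or 3 or chow replicate 1 or 3, and Des was not called without HFD replicate 1 or 3 or chow replicate 1, 2 or 3. Of 8 satellite cell markers the cadherin gene Cdh15 fell by 0.64 and Sdc4 by 0.79, and Pax7 was at -0.10. Sdc4 was not called without HFD replicate 1, 2 or 3 or chow replicate 1 or 3.

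Glucose and insulin genes changed one by one. Pfkfb3, whose product drives glycolysis through fructose 2,6-bisphosphate, was at 299, 246 and 114 CPM on HFD and at 851, 365 and 574 CPM on chow. The spread within both groups was wide though they did not overlap (-1.46 ± 0.37, adjusted p = 0.0168). It was not called without HFD replicate 3 or chow replicate 1 or 3 (differences of -1.05 to -1.45). The related Pfkfb1 rose by 0.67. The glucose transporter Slc2a1 fell by 0.57 and hexokinase 1 (Hk1) by 0.41, whereas Slc2a4, the insulin-responsive transporter, at -0.20, and Hk2, at 0.18, were not called. Of 13 glycolytic genes Gpi1 and Aldoa fell by 0.43 and 0.57, and Fbp2, a fructose bisphosphatase that runs the opposite way, rose by 0.67. Slc2a1 was not called without HFD replicate 1 or chow replicate 1 or 2, Hk1 without HFD replicate 1, 2 or 3 or chow replicate 2 or 3, Gpi1 without HFD replicate 1 or 3 or chow replicate 1 or 3, and Aldoa without HFD replicate 1 or 3 or chow replicate 1 or 3.

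Irs2, a docking protein of the insulin receptor, was at 12.3, 14.6 and 14.3 CPM on HFD and at 49.96, 20.8 and 29.6 CPM on chow. Chow replicate 1 was far above the rest of its group, and the fall of 1.14 ± 0.30 was called (adjusted p = 0.0213). It was not called without HFD replicate 1 or 3 or chow replicate 1 or 3 (differences of -0.81 to -1.18). Pik3r1, the regulatory subunit of PI 3-kinase, rose by 0.80 and the catalytic subunit Pik3ca fell by 0.26. Insr (-0.12), Irs1 (-0.14) and Akt2 (-0.0086) were not called. Of the glycogen genes, Pygm fell by 0.56 and the other 15 of 16 were not called. Pik3r1 was not called without HFD replicate 1 or 2 or chow replicate 1, Pik3ca without HFD replicate 1 or 2 or chow replicate 1, 2 or 3, and Pygm without HFD replicate 1, 2 or 3 or chow replicate 1 or 3.

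Among regulators of metabolism, Nrip1, a corepressor of oxidative genes also known as RIP140, was higher, at 38.6, 39.1 and 35.9 CPM on HFD against 21.1, 14.6 and 20.4 CPM on chow (0.998 ± 0.17, adjusted p = 0.00162). Tfam, which maintains mitochondrial DNA, rose by 0.29. Lpin1 fell by 0.54 and Ppard, the PPAR most abundant in muscle, by 0.33. Ppargc1a, the coactivator PGC-1alpha, was at 64.7, 74.4 and 79.96 CPM on HFD against 53.8, 52 and 51 CPM on chow and was not called (0.47 ± 0.26, adjusted p = 0.285), nor was Ppara (0.40). Tfam was not called without HFD replicate 1 or 3 or chow replicate 1, 2 or 3 and Ppard without HFD replicate 1 or 3 or chow replicate 2 or 3.

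Of 19 genes of cholesterol synthesis and uptake 4 fell and 1 rose. The regulator Srebf2 fell by 0.53 and Sqle by 0.59, and squalene synthase (Fdft1) rose by 0.43. Of 16 fatty acid synthesis genes 3 fell, Fasn by 0.77, the desaturase Fads1 by 0.47 and the glucose-sensing factor Mlxipl (ChREBP) by 0.52, and 2 rose, Gpam by 0.64 and Thrsp by 0.45. With 1 library left out, 1 to 3 of the fatty acid synthesis genes were called lower and 0 or 1 higher. Thrsp was called in 0 of the 6 fits. Gpam was not called without HFD replicate 1, 2 or 3 or chow replicate 2 or 3, Fasn without HFD replicate 1 or 2 or chow replicate 2 or 3, Fads1 without HFD replicate 1 or 3 or chow replicate 2 or 3, and Sqle without HFD replicate 3 or chow replicate 1 or 3.

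Scd1, the stearoyl-CoA desaturase, took opposite positions in the pairs. With AQ it was at 186, 99 and 150.03 CPM on HFD and at 199.6, 211 and 222 CPM on chow, lower in every HFD library but not called (-0.58 ± 0.20, adjusted p = 0.0745). Untreated, it was at 255, 227 and 226 CPM on HFD and at 107, 105 and 117 CPM on chow, higher in every HFD library and not called (adjusted p = 0.069). The difference between the diet effects was called, at -1.68 ± 0.29 (adjusted p = 0.0223). That adjusted p was 0.0788 without HFD replicate 3 with AQ, 0.055 and 0.0514 without chow replicate 2 or 3 with AQ, and 0.015 to 0.0445 without any other of the 12 libraries.

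Of 18 immediate early genes, which answer stimulation within minutes, 3 fell and 0 rose, against 10.6% called over all genes. These were Klf4, lower by 1.18, Klf2 by 0.97 and Fosl2 by 0.60. With 1 library left out 1 to 3 fell, and with the GC trend removed 1, under plain CPM 2 and with the clock score 0. The median of the list was -0.71 with the clock score, against -0.46 in the main fit. Klf2 was not called without HFD replicate 1 or 3 or chow replicate 1 or 3 and Fosl2 without HFD replicate 1, 2 or 3 or chow replicate 1 or 3. The NR4A receptors, of which the series concerns Nurr1 (gene Nr4a2), belong to the same kind of gene. Nr4a1 was at 136, 132 and 136 CPM on HFD and at 354, 165 and 251 CPM on chow. The HFD libraries were level and the chow libraries were spread above them (-0.85 ± 0.22, adjusted p = 0.0207), and it was not called with the GC trend removed, with the clock score as a covariate, or without HFD replicate 1, 2 or 3 or chow replicate 1 or 3 (differences of -0.59 to -0.86). Nr4a3 was at 1.34, 1.47 and 1.57 CPM on HFD against 4.02, 3.56 and 4.03 CPM on chow, apart but not called (adjusted p = 0.106). Nr4a2 itself was at 0.828, 1.26 and 2.03 CPM on HFD against 4.79, 1.26 and 2.05 CPM on chow, with overlapping groups (-0.56 ± 0.27, adjusted p = 0.206).

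None of 13 fast fibre and none of 13 slow fibre genes was called. Of 17 atrophy and denervation genes 3 fell and 0 rose (1 to 3 fell with 1 library left out): the ubiquitin ligases Fbxo32, from a mean of 625 to 352 CPM (-0.82 ± 0.21, adjusted p = 0.0209), and Trim63 (-0.51), and the cell cycle inhibitor Cdkn1a. Fbxo32 was not called without HFD replicate 3 or chow replicate 1 or 3 (differences of -0.70 to -0.83). Cdkn1a was at 8.03, 8.82 and 5.36 CPM on HFD and at 18.9, 26.6 and 22.6 CPM on chow, with no overlap (-1.51 ± 0.31, adjusted p = 0.0058), and was not called with the clock score as a covariate. Myoglobin (Mb) rose by 0.85 ± 0.23 (adjusted p = 0.0224) and was not called without HFD replicate 1 or 2 or chow replicate 1 or 3 (differences of 0.65 to 0.82). The growth regulators Fst and Smad3 fell by 1.28 and 0.59, Bmp4 rose by 0.77, and the myogenic factor Myod1 fell by 0.66. Trim63 was not called without HFD replicate 1, 2 or 3 or chow replicate 1 or 3, Smad3 without HFD replicate 1, 2 or 3 or chow replicate 1 or 3, Bmp4 without chow replicate 3, and Myod1 without HFD replicate 1 or 3 or chow replicate 1 or 3.

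Several of the largest changes lay outside these lists. The largest rise of all was that of BC048679, a gene known by its clone, at 31.8, 19.5 and 14.2 CPM on HFD against 3.03, 3.56 and 2.71 CPM on chow (2.41 ± 0.31, adjusted p = 0.00022), picked out after its values were seen. Chrna2, a subunit of the nicotinic acetylcholine receptor, was at 9.11, 5.95 and 5.18 CPM on HFD against 1.27, 0.418 and 0.952 CPM on chow (2.04 ± 0.38, adjusted p = 0.00277). Both genes were low on chow and had HFD replicate 1 as their highest library. Adh1, an alcohol and retinol dehydrogenase, was at 64.8, 70.4 and 52.7 CPM against 16.7, 18.8 and 16.3 CPM (1.80 ± 0.18, adjusted p = 4.54e-05), and Fmo2, a flavin monooxygenase, at 69.6, 70.7 and 69.2 CPM against 20.1, 21.3 and 18.7 CPM (1.75 ± 0.20, adjusted p = 9.47e-05). These were among the best separated groups of the comparison. Rab15, a small GTPase of endosomes, rose by 1.51, and Slc4a8, a bicarbonate exchanger, by 1.495.

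On the other side, Auts2 fell from 44.6, 33.3 and 45 CPM on chow to 13.6, 15.1 and 11.7 CPM on HFD (-1.53 ± 0.16, adjusted p = 4.71e-05). Tnfrsf12a, the receptor for TWEAK, was at 7.14, 8.89 and 5.36 CPM on HFD against 20.1, 35.4 and 17.9 CPM on chow (-1.61 ± 0.42, adjusted p = 0.0215). It was not called without HFD replicate 1 or 3 or chow replicate 2 (differences of -1.32 to -1.62). The kinase gene Pim1 fell by 1.59, the matrix protein gene Spon2 by 1.64 and Apold1 by 1.55, the last with chow replicate 1 at 22.1 CPM against 4.11 and 4.76 CPM in the other chow libraries. Apold1 was not called without HFD replicate 1, 2 or 3 or chow replicate 1.

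The same diet contrast without AQ called 6 genes, 0.0479% of those tested, by limma, with 1193 at an unadjusted p below 0.05, 5 by edgeR and 47 by DESeq2. Of the 1324 genes called with AQ, 982 (74.2%) had a difference of the same sign in untreated mice, against 56.5% of all genes. An unadjusted p below 0.05 there in the same direction was found for 208 of the 1324. Over all 12524 genes it was 1193 in either direction, and the share in the same direction was not computed. The share of the same sign was 82.2% for genes that rose with AQ, with an untreated median of 0.14. For genes that fell it was 67.2%, with an untreated median of -0.06. These genes were selected by the test with AQ, so the medians do not compare the size of the effects between the pairs. Across the 12524 genes the effects of diet with and without AQ had a Pearson correlation of 0.196 and a Spearman correlation of 0.185, as a description over genes, which are not independent. The pairs share no library but share 1 deposited table and its scaling.

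The spread between libraries differed between the pairs. The median standard deviation within a group was 0.111 for HFD and 0.116 for chow with AQ, and 0.137 and 0.142 untreated. For beta-oxidation genes, untreated chow replicate 1 lay at 0.1 above the mean of all libraries while the other untreated chow libraries lay at -0.37 and -0.37. Without that library the untreated contrast called 40 genes, and without HFD replicate 2 or chow replicate 2 or 3 limma called 0, with 779 to 1105 genes at an unadjusted p below 0.05.

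The 6 genes of the untreated contrast divided. Decr1, Ech1 and Dbi were called in both pairs in the same direction. For Dbi the differences were 0.60 with AQ and 0.62 untreated. Tmem45b, a membrane protein, was at 4.84, 6.14 and 6.22 CPM on HFD against 0.872, 0.626 and 1.16 CPM on chow untreated. With AQ the HFD libraries were at 4.08, 1.68 and 1.48 CPM and the chow libraries at 2.4, 3.28 and 2.12 CPM. The groups with AQ overlapped, and the difference between the diet effects was -1.98 ± 0.38 (adjusted p = 0.0287). With 1 of the 12 libraries left out that adjusted p ran from 0.015 to 0.084. The unnamed gene 1500017E21Rik differed likewise (-1.13, adjusted p = 0.00786), and for Plet1os the difference of 0.80 was not called (adjusted p = 0.117). These genes were selected by the untreated contrast, which is a part of the difference. Their differences between the diet effects are thus not independent of that selection.

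Tested gene by gene, the diet effect with AQ minus that without AQ was called for 89 genes, 0.711% of those tested, 16 higher and 73 lower (13 and 19 under plain CPM), and the unadjusted p was below 0.05 for 1770. Of the 89, 84 were also called in the comparison with AQ, 70 of them lower and 14 higher on HFD. The diet effect with AQ is a part of the difference, so this overlap is in part built in. edgeR called 76 and DESeq2 229. None of the 24 beta-oxidation genes and none of the 11 uptake genes was among the 89; their median differences between the effects were 0.31 and 0.34, and a missed threshold does not show that the effects were equal. The count fell to 3 without HFD replicate 3 with AQ, to 5 without chow replicate 3 with AQ, to 9 without chow replicate 2 with AQ, to 16 without HFD replicate 1 with AQ and to 22 without untreated HFD replicate 1.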

How the data were processed

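The values the authors deposited are a signal, read counts per library size (CPM) scaled further by a factor for each library, in a table of 12558 genes by 18 libraries. Per the submitters' processing notes, TopHat2 2.0.12, edgeR and GRCm38/mm10 were used, on 50-base single-end reads per the labels' protocols. The sources used here do not give the counting tool, annotation or strand setting. Every deposited value was a whole multiple of its library's smallest step (100% within 1e-06 reads), so whole counts were recovered, 10404895 to 16082994 reads a library over the series. In 18 of 18 libraries the deposited factor was within 0.0001 of the TMM factor (trimmed mean) that edgeR gives for those reads. The reads were used for edgeR 4.0.16 and DESeq2 1.42.0 as alternatives.

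Values were taken as log2(CPM + 1), 12524 genes passed a filter (1 CPM or more in 3 or more libraries), and limma 3.58.1 (R 4.3.3) fitted 6 groups of 18 libraries, 12 residual degrees of freedom, with Benjamini-Hochberg adjustment and 0.05 as threshold. The difference between the diet effects was a contrast in the same fit. Alternatives changed the pseudocount, filter, scaling, weighting, design and tool, removed each library's GC trend, or left out 1 library, and the clock score covariate was added after seeing the data. The fitting code was tested on simulated data. GC content and positions came from GENCODE M21 (GRCm38), with 12489 genes matched, and promoters from RefSeq (GRCm38.p6), matched by symbol for 9438 of the genes tested.

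Genes were named by a rule: the 12 largest changes each way with at least 2 CPM in the higher group and no overlap, clone symbols left out, up to 4 members a list by smallest p, the 6 largest each way of the difference, and a few always. The rule gave 160 genes, and 70 more, BC048679 and list members described for their role, were chosen after their values were seen. Some list members are not reported here. The members and lists were chosen with earlier results of these data known.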

Additional observations from a re-analysis of the deposited data

Results flagged for a closer look

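The difference between the diet effects with and without AQ was called for 29 of the genes named. Each value here is the diet effect with AQ minus that without AQ on the log2(CPM + 1) scale. Among the genes named, collagens made up the largest group, with Col5a3 at -1.78, Col4a1 at -1.44, Col4a2 at -1.39, Col15a1 at -1.35, Col18a1 at -1.25, Col6a3 at -1.23, Col5a1 at -1.21 and Col6a2 at -1.19. Other matrix genes followed, with Fbn1 at -1.68, Loxl1 at -1.25, Vcan at -1.19 and Fn1 at -0.98. The complement gene C4b was at -1.94, the desaturase Scd1 at -1.68, the ChREBP gene Mlxipl at -0.55, the glucose transporter Slc2a1 at -0.99 and the clock gene Npas2 at -1.93. The kinase Pim1 was at -1.48, Auts2 at -1.30, heme oxygenase Hmox1 at -0.97, the cadherin Cdh15 at -0.68, Tmem45b at -1.98 and 1500017E21Rik at -1.13. The size of a group here depends on which genes were named, and some were named after their values were seen. For collagens the count called was 0 without HFD replicate 1 or 3 or chow replicate 2 or 3 with AQ. With the GC trend removed, 25 genes in all were called in the difference.

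On the other side, the diet effect was higher with AQ for Slc4a8, at 1.46, Fmo2, at 1.31, the purine receptor P2ry1, at 1.24, Adh1, at 1.21, Stxbp4, at 1.09, and Lrrn1, at 0.94. P2ry1 stood at 22.9, 20.03 and 22.6 CPM on HFD and 7.54, 9.97 and 8.93 CPM on chow with AQ, and at 12.3, 15.9 and 15.9 CPM on HFD and 20.5, 14.8 and 10.5 CPM on chow without it. Untreated chow replicate 1 lay among the HFD libraries with AQ, and the other 8 libraries lay below them.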

How the results depend on the processing

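For the diet effect with AQ, array weights called 2612 genes and the clock score as a covariate 531, and leaving out 1 library gave 573 to 1130 calls. The replicate block called 1418, 1281 of them among the 1324. Same-numbered libraries with AQ correlated at -0.047, 0.066 and 0.053, and differently numbered ones at -0.11 to 0.078. With 3 libraries a group these values cannot decide whether the numbers pair the samples. The difference between the diet effects (89 genes) came to 32 under plain CPM, 31 without the variance trend, 275 with array weights, 229 by DESeq2, 25 with the GC trend removed, 30 with the clock score and 3 to 103 with 1 library left out. The untreated contrast (6 genes) came to 2 with its groups alone, 12 with the replicate block, 47 by DESeq2 and 0 to 40 with 1 library left out. With the clock score as a covariate 14 of 230 named genes changed sign, 9 of them called in neither fit and 5 called in 1 of them, Per3 (-0.078), Tef (-0.15), Dbp (-0.96), Cry2 (-0.91) and Pik3ca (0.0062), where the score contains Dbp, and 99 named genes that had been called were not. The cause of these changes was not tested. Of the named genes called, 31 were not called with the GC trend removed, 22 under plain CPM, and 29 to 70 with 1 library left out. Depth limits genes such as Npas2, at a few reads a library on HFD.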

Other observations

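Some further gene groups were measured in the comparison with AQ, where 10.6% of all genes tested were called. Of 18 genes of branched-chain amino acid breakdown 4 rose on HFD and 0 fell: Hibch by 0.49 and Hibadh by 0.41, both of valine breakdown, Acad8 by 0.26 and methylmalonyl-CoA mutase, Mut, by 0.29. The list had a median of 0.14 with AQ and of -0.098 untreated. With 1 library left out 2 or 3 of its members rose. Acad8 was not called without HFD replicate 1 or 3 or chow replicate 1 or 3. Mut was not called without HFD replicate 2 or 3 or chow replicate 1, 2 or 3. Of 18 antioxidant genes 2 rose, catalase (Cat) by 0.73 and the mitochondrial superoxide dismutase Sod2 by 0.47, and 2 fell, Gstm1 by 0.55 and Hmox1 by 0.501. With 1 library left out 0 to 2 rose and 1 fell, and Hmox1 was never called. Cat was not called without HFD replicate 1, 2 or 3 or chow replicate 1 or 3, and Sod2 without chow replicate 1 or 3.

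Ddit3, a transcription factor of the stress response, was at 24, 19 and 18.4 CPM on HFD and at 9.02, 11.2 and 7.32 CPM on chow (1.08 ± 0.25), and it was the only member called among 15 tested genes of that response. Ddit3 was not called without chow replicate 3. Among 16 heat shock genes the mitochondrial chaperonin Hspd1 rose by 0.42, while Bag3 and Hsp90ab1 fell by 0.61 and 0.34. Hspd1 was not called without HFD replicate 1, 2 or 3 or chow replicate 1 or 3. Bag3 lost its call without HFD replicate 3, and Hsp90ab1 without HFD replicate 1 or 3 or chow replicate 1. Of 13 neuromuscular junction genes Dok7 rose by 0.42 and Colq, which anchors acetylcholinesterase, fell by 0.46. With 1 library left out Dok7 was never called, and Colq was not called without HFD replicate 1 or 3 or chow replicate 2. Of 20 lysosome and autophagy genes 3 fell and 0 rose, with Sqstm1 lower by 0.499 and Atp6v0d1 by 0.32. The count that fell was 0 to 2 with 1 library left out. Sqstm1 was not called without HFD replicate 3 or chow replicate 1. Atp6v0d1 was not called without HFD replicate 1 or 3 or chow replicate 1, 2 or 3.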
